A study of Homo sapiens with 36 samples.

Results

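The comparison described here was between HT29 cells given the high dose and HT29 cells given the medium dose of a water extract of Aconiti Lateralis Radix Preparata (ACD), the processed root of an aconite plant used as a herbal medicine. The high dose was 500 µg/mL and the medium dose 100 µg/mL, a 5-fold step, with 3 libraries at each dose. These 6 libraries were chosen by their labels, from 36 libraries in 12 groups, and the test of the step used no vehicle library. The question was what the dose step added to gene expression, and all genes were tested.

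HT29 is an established line of human colorectal adenocarcinoma cells, grown in culture medium with serum. The study measured transcriptomes of HT29 and of SW1783, an established human astrocytoma line, after ACD or control treatments in several batches. All 6 libraries came from batch B, were taken 24 h after treatment, and were made from total RNA with a directional mRNA library kit. The study set its highest extract dose by solubility and clinical relevance, and saw no toxicity at it in a viability assay. Each line is a single culture model with none of the stroma or immune cells of a tissue, and the labels do not say whether the 3 libraries of a group came from separate cultures. The p-values below therefore measure only the spread between these libraries, which may be technical. HT29 libraries of batch B with vehicle (3) and with the low dose of 20 µg/mL (3) are given as background levels only; the labels and the study's text give different DMSO contents for the vehicle, and no test was made against it here.

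Several of the genes described below belong to the integrated stress response. In that pathway, kinases that sense amino acid shortage, unfolded protein in the endoplasmic reticulum, double-stranded RNA or haem shortage phosphorylate the translation factor eIF2α, and translation of the transcription factor ATF4 then rises while most translation falls. ATF4 and its partners switch on genes for amino acid synthesis, amino acid import and tRNA charging, and genes such as DDIT3, TRIB3 and CHAC1. Mitochondria carry their own small genome, transcribed from both strands as long precursors that are cut into 2 ribosomal RNAs, 13 messenger RNAs and the transfer RNAs.

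The libraries held between 15941276 and 33866683 gene counts, so that 3 counts, the most that a count of 0 allows, corresponded to between 0.0886 and 0.188 CPM (counts scaled to the library total); this floor covers counting error only. All 12 colorectal epithelial markers reached 1 CPM, with a summed level of 1.17e+04 to 1.28e+04 CPM at the medium dose and 1.12e+04 to 1.21e+04 at the high dose. Of 11 markers of SW1783, 4 reached that level, of 10 leukocyte markers 4, and of 7 endothelial and erythroid markers 1. The summed SW1783 markers ran from 498 to 511 CPM at the medium dose and from 382 to 448 CPM at the high dose. Scaled by a size factor for each library instead, they ran from 11300 to 11700 and from 10000 to 11200, with 0 of the 4 tested called. The leukocyte markers summed to 1.44e+03 to 1.63e+03 CPM at the medium dose and 1.19e+03 to 1.69e+03 at the high dose. Nearly all of the SW1783 sum and of the leukocyte sum came from 1 gene each. Scaled by size factors, CD44 had a medium-dose mean of 11417.5, against the SW1783 marker sum of 11300 to 11700. On that scale LYZ had a medium-dose mean of 34752.8, against a leukocyte marker sum of 33200 to 37200. High-dose replicate 2 stood apart from its group. It was also the smallest of the 6 libraries, at 15941276 counts. In that library 2499 genes, or 23.0% of those with a mean of at least 100, lay more than 1.5-fold from the mean of its other replicates, against at most 392 genes (3.61%) in any of the other 5. Its deviations from the mean of all 6 libraries had a rank correlation with transcript length of -0.568. This was taken across 10809 genes, which are not independent replicates. In the other 5 libraries this correlation was positive, from 0.281 to 0.456. The mean includes every library, so a strong trend in 1 library favours the opposite sign in the others. The part of length in the results was not tested beyond a fit, chosen after seeing the data, with the length and GC trends removed, which called 88 genes and 65 of the 69 below. Results are therefore given with and without it where it matters.

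The high dose changed 69 genes against the medium dose, 0.396% of 17415 genes tested, of which 46 rose (0.264%) and 23 fell (0.132%). A change was called at a DESeq2 adjusted p under 0.05 with a fold of more than 1.5. The genes that rose included 16 of the integrated stress response list and both mitochondrial ribosomal RNAs, and those that fell included 9 mitochondrial messenger RNAs. In such bulk RNA a large change in few cells and a small change in all cells cannot be told apart. In all 69 genes the 3 high-dose libraries lay wholly on one side of the 3 medium-dose libraries, as did 16% of all genes tested. Without the fold rule 118 genes passed (0.678%), 80 up and 38 down. Without high-dose replicate 2, DESeq2 called 80 of 11341 genes (0.705%), and all 69 genes kept their direction, with 51 of them called. Of those not called, some, such as PIGR and ULBP1, had no adjusted p in that fit. The rest, such as SARS1 and GARS1, passed the adjusted p but not the fold rule. The quasi-likelihood test of edgeR called 11 genes over the 6 libraries (0.0745%), 10 up (0.0677%) and 1 down (0.00677%), namely CHAC1, ASNS, DDIT4, PSAT1, ATF3, TRIB3, PCK2, LINC01133, MT-RNR1, MT-RNR2 and MT-ND2, and 143 without high-dose replicate 2 (0.952%), 81 up (0.539%) and 62 down (0.413%), among them 61 of the 69.

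Of 30 tested genes of the integrated stress response, 16 rose and 0 fell, and the median log2 fold change of the 30 was 0.67, against 0.0 for all genes tested. Without high-dose replicate 2 the median was 0.72, and 15 of the 16 were called, the exception being SLC3A2 at 0.54. The largest change was that of CHAC1 (ENSG00000128965, GRCh38 chromosome 15, 40952962 to 40956512), which encodes an enzyme that breaks down glutathione. Its normalized counts, the counts divided by a size factor for each library, were 95.6, 78.6 and 92.2 at the medium dose and 510.5, 405.5 and 483.4 at the high dose. Every high-dose library was above every medium-dose library, and the step was 5.3-fold, or 2.40 ± 0.17 (SE) on the log2 scale (DESeq2 adjusted p = 2.24e-39, edgeR adjusted p = 0.00154, n = 3 in each group). CHAC1 stood at 60.2 ± 10.7 with vehicle and 65.8 ± 0.7 at the low dose (SD, n = 3).

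ASNS (ENSG00000070669, chromosome 7, 97851677 to 97872542) encodes asparagine synthetase, which makes asparagine from aspartate. It stood at 1491, 1478 and 1492 at the medium dose and at 4766, 6951 and 4805 at the high dose. The high-dose values lay far above the medium-dose values, with high-dose replicate 2 the highest, and the step was 3.7-fold (log2 1.89 ± 0.18, DESeq2 adjusted p = 1.87e-23). Another gene overlaps ASNS on the same strand, so a part of its counts is uncertain. Serine synthesis enzymes rose too. PSAT1 (ENSG00000135069, chromosome 9, 78297125 to 78330093), which makes phosphoserine, had 2659, 2552 and 2540 normalized counts at the medium dose and 5912, 6991 and 6118 at the high dose (2.45-fold, DESeq2 adjusted p = 1.51e-32). PHGDH, the first enzyme of that path, stood at 663.9, 630.2 and 627.9 and then at 1250, 1642 and 1242 (2.15-fold, DESeq2 adjusted p = 3.24e-10). In both genes the groups were well apart and the spread within the medium dose was small. Other enzymes called were PCK2, the mitochondrial enzyme that makes phosphoenolpyruvate (1.84-fold), CTH, which makes cysteine from cystathionine (1.8-fold), MTHFD2 of mitochondrial folate metabolism (1.73-fold), and GPT2, the mitochondrial alanine aminotransferase (1.56-fold). CTH and MTHFD2 overlap other genes on the same strand. ASS1, the argininosuccinate synthase of arginine synthesis, also rose 1.89-fold. SHMT2, which passes serine's carbon to mitochondrial folate, passed the adjusted p but not the fold (log2 0.49 ± 0.08, DESeq2 adjusted p = 1.01e-06).

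Of the list's regulatory genes, ATF3, TRIB3 and DDIT3 rose and some others were not called. ATF3 (ENSG00000162772, chromosome 1, 212565334 to 212620777), a stress-induced transcription factor, stood at 62.3, 61.8 and 71.0 at the medium dose and at 145.0, 165.8 and 148.9 at the high dose (2.35-fold, DESeq2 adjusted p = 1.99e-07). TRIB3, a pseudokinase that restrains the response, stood at 1118, 997.9 and 1072 and then at 2176, 2018 and 2097 (1.98-fold, DESeq2 adjusted p = 9.15e-22). DDIT3, which encodes the transcription factor CHOP and overlaps other genes on the same strand, stood at 123.5, 132.8 and 126.7 and then at 236.4, 269.3 and 210.7 (1.85-fold, DESeq2 adjusted p = 5.71e-05). JDP2, a transcription factor of the same bZIP class outside the list, rose 2.32-fold. The change in the transcript of ATF4 itself was smaller and missed the fold rule, at 0.54 ± 0.11 on the log2 scale (DESeq2 adjusted p = 0.000168). GDF15, a secreted stress cytokine, was not called in HT29 (log2 0.23 ± 0.09, DESeq2 adjusted p = 0.475), and neither was NUPR1, a chromatin-associated stress protein (log2 1.47 ± 0.49, DESeq2 adjusted p = 0.246).

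DDIT4, SESN2 and EIF4EBP1 rose as well. DDIT4 (ENSG00000168209, chromosome 10, 72273919 to 72276036), which inhibits the growth kinase complex mTORC1, stood at 460.8, 439.5 and 470.4 at the medium dose and at 1540, 1767 and 1602 at the high dose. Its groups lay far apart, with a step of 3.58-fold (log2 1.84 ± 0.11, DESeq2 adjusted p = 2.24e-61, edgeR adjusted p = 0.000801). SESN2, a leucine sensor that restrains mTORC1, had 327.6, 278.5 and 320.7 normalized counts and then 671.2, 495.8 and 680.4 (2-fold, DESeq2 adjusted p = 4.37e-06), with high-dose replicate 2 the lowest of its group. EIF4EBP1, which blocks cap-dependent translation, rose 1.93-fold. Secreted and surface proteins that rose were ADM2, a peptide hormone (62.3, 48.8 and 54.7, then 231.1, 136.3 and 261.1), VEGFA, the vessel growth factor (1.68-fold), the lipoprotein receptor VLDLR (2.01-fold), and ULBP1, a ligand of the receptor NKG2D on killer lymphocytes. ULBP1 was a low-count gene, at 8.6, 16.8 and 15.4 and then at 77.7, 50.9 and 71.9.

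Amino acid transporters and aminoacyl-tRNA synthetases, which load amino acids onto tRNAs, were listed after their values were seen, so their counts describe and do not test. Of 28 transporters tested, 4 rose and 1 fell, with a median log2 fold change of 0.17. SLC6A9, a glycine transporter, stood at 26.9, 13.7 and 25.9 at the medium dose and at 99.8, 59.1 and 130.2 at the high dose (4.44-fold, DESeq2 adjusted p = 5.71e-05). SLC1A4, a carrier of alanine, serine and cysteine that overlaps another gene on the same strand, stood at 258.9, 232.7 and 237.1 and then at 542.0, 382.5 and 576.9 (2.07-fold, DESeq2 adjusted p = 1.73e-05). The cystine carrier SLC7A11 rose 1.5-fold and its partner chain SLC3A2 1.58-fold. The leucine carrier SLC7A5 shows what high-dose replicate 2 did to some tests. It stood at 7949, 7479 and 8091 at the medium dose and at 14941, 8288 and 14435 at the high dose, and was not called over the 6 libraries (log2 0.68 ± 0.23, DESeq2 adjusted p = 0.261) but was called without that library (log2 0.91, DESeq2 adjusted p = 2.67e-96). Of 20 cytosolic tRNA synthetases tested, 2 rose past the fold rule, SARS1 for serine (1.68-fold) and GARS1 for glycine (1.53-fold). A further 8 passed the adjusted p below the fold, AARS1 for alanine the most clearly (log2 0.53 ± 0.08, DESeq2 adjusted p = 5.67e-09), and 19 of the 20 had a positive change. Without high-dose replicate 2 SARS1 and GARS1 stood at 0.57 and 0.55, just under the 1.5-fold rule, and 0 synthetases were called.

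The levels of the 16 genes at the other doses are given as a description, since a step from medium to high dose chose them. Taking the mean of each group against vehicle, the 16 genes had a median log2 difference of 0.0 at the low dose, 0.11 at the medium dose and 1.09 at the high dose. For 11 of the 16 the medium-dose mean lay within the range of the vehicle and low-dose libraries, while in all 16 every high-dose library lay outside the range of the other 9. These comparisons also share the vehicle libraries. Among all 46 genes that rose, the median over vehicle was 0.12 for the medium dose and 1.1 for the high dose. In 27 of the 46 the medium-dose mean lay within the range of the vehicle and low-dose libraries. In all 46 every high-dose library lay outside the range of the other 9, so this was not particular to the 16.

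**Figure D1:**
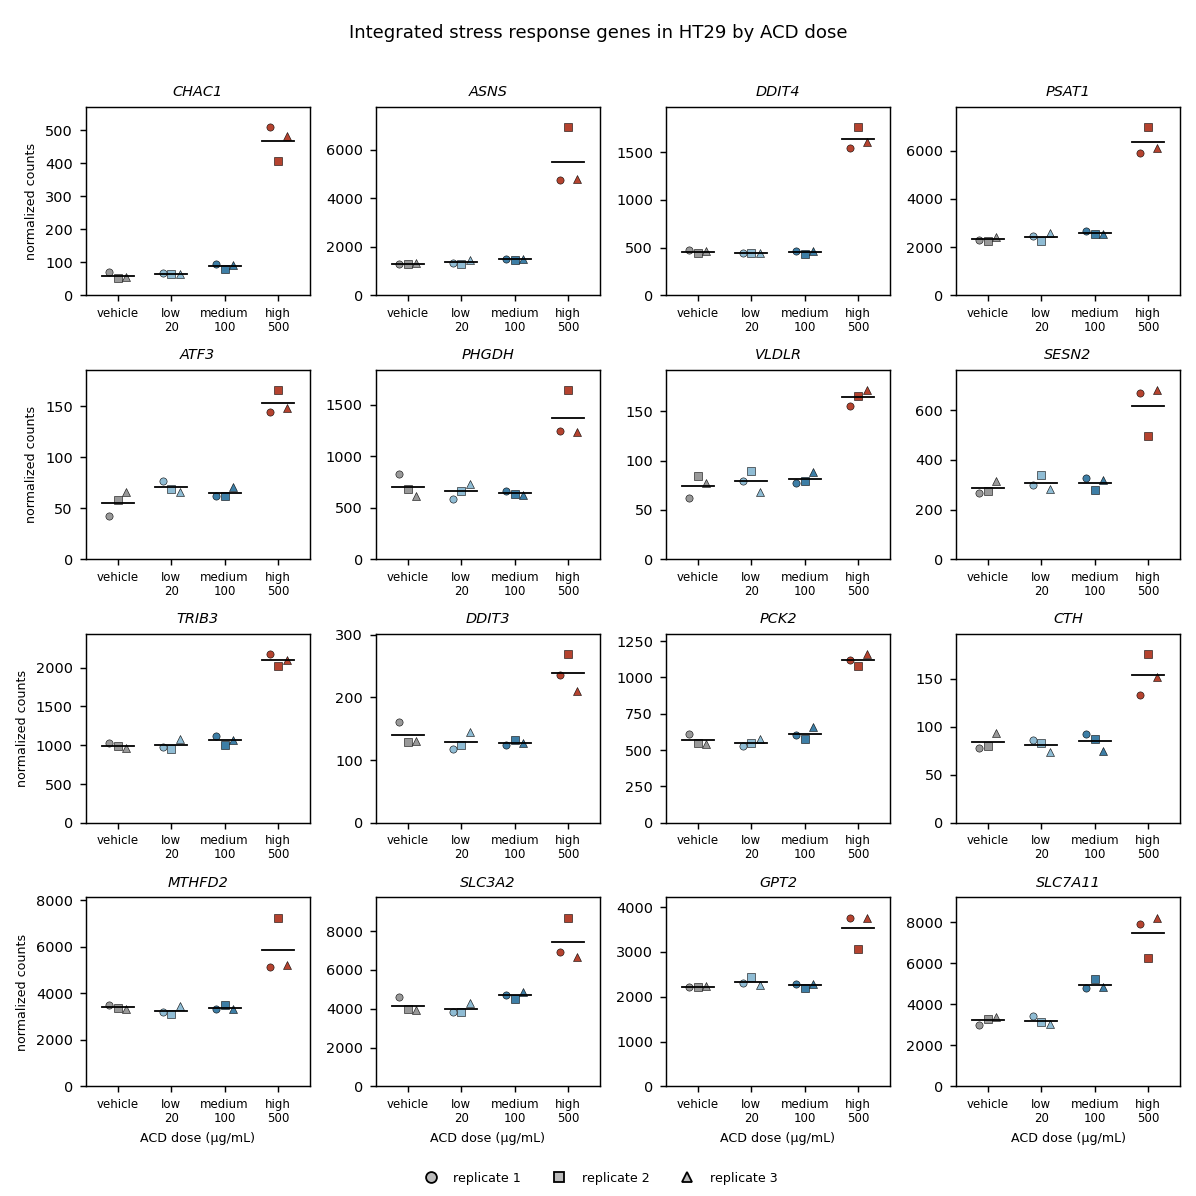
Normalized counts (vertical axes) of the 16 integrated stress response genes that rose between the doses, in each HT29 library of batch B at vehicle, low, medium and high dose (horizontal axes); marker shapes stand for replicates and black bars for group means. The high-dose libraries lie above the other 9 in each panel, with CHAC1 at 405.5 to 510.5 against 78.6 to 95.6 at the medium dose.

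The upstream bases of genes that rose were searched for the letters of an element that ATF4 and C/EBP proteins are known to bind, TGATGNAA on either strand. Promoters were taken from RefSeq (GRCh38.p14), and the search covered 250 bases before the first listed start of each gene. Any other start of a gene, ATF3 included, was not searched. The element's letters were in 6 of the 35 rising genes with an entry (17.1%), against 870 of 27305 promoters (3.19%), and in 0 of 8 genes that fell. The 6 were CHAC1, ASNS, ATF3, FUT1, LRRC31 and LINC00365. Among the called members of the response they were in 3 of 14. Stretches of the 3 are printed below, from 5′ to 3′ on the strand of the gene, with the matching letters in capitals, because these genes carry the clearest part of the result. For CHAC1 (chr15:40953251-40953280, plus strand) and ASNS (chr7:97872458-97872487, minus strand) 30 bases are given, since some annotated transcripts start farther upstream and hold these bases in a 5′ exon. For ATF3 (chr1:212565170-212565269, plus strand) 100 bases are given, in which GENCODE lists no exon.
CHAC1: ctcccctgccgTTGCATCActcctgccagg
ASNS: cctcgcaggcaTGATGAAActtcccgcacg
ATF3: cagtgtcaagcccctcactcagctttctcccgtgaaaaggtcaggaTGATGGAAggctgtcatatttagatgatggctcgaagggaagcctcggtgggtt
The match in CHAC1 is on the opposite strand and those in ASNS and ATF3 on the strand of the gene. A match describes letters and does not show binding.

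The mitochondrial genome showed opposite changes in the counts of its ribosomal and messenger RNAs. The libraries were made with an mRNA kit, so counts of ribosomal RNA may not follow its amount in the cells, which was not tested. The ribosomal RNAs took 2.18%, 2.16% and 1.96% of all counts at the medium dose and 12.5%, 12.1% and 11.3% at the high dose, a difference of 9.86 percentage points with no overlap (exact permutation test, two-sided p = 0.1, the smallest that 3 against 3 allows). The messenger RNAs took 7.57%, 7.29% and 6.76% and then 4.07%, 3.74% and 2.76%, again without overlap (difference -3.68 points, exact permutation p = 0.1). With vehicle the ribosomal share was 1.18% ± 0.04 and the messenger share 8.27% ± 0.66 (SD, n = 3).

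MT-RNR1 (ENSG00000211459, mitochondrial positions 648 to 1601), the RNA of the small ribosomal subunit, had 77576, 78590 and 67985 normalized counts at the medium dose and 722664, 736722 and 664547 at the high dose, a 9.48-fold step (log2 3.24 ± 0.10, DESeq2 adjusted p = 1.34e-214). MT-RNR2, the RNA of the large subunit (positions 1671 to 3229), had 425277, 414315 and 380564 and then 2410005, 2429807 and 2081346 (log2 2.50 ± 0.11, DESeq2 adjusted p = 7.14e-117). High-dose replicate 2 did not stand apart in either. Of the 13 messenger RNAs, 9 fell, and the median of the 13 was -0.91 on the log2 scale. MT-ND2, a subunit of respiratory complex I, had 147820, 142796 and 130826 normalized counts at the medium dose and 67256, 55870 and 51159 at the high dose (log2 -1.27 ± 0.14, DESeq2 adjusted p = 2e-17). The other complex I subunits that fell were MT-ND1 (log2 -1.35 ± 0.19), MT-ND4 (-1.16 ± 0.21) and MT-ND3 (-1.06 ± 0.20). The complex IV subunits MT-CO1, MT-CO2 and MT-CO3 fell by 0.90, 0.86 and 0.91 on the log2 scale, and the ATP synthase subunits MT-ATP6 and MT-ATP8 fell by 0.93 and 1.03. The 4 not called were MT-ND4L (log2 -0.87), MT-CYB (-0.36), MT-ND5 (-0.05) and MT-ND6 (0.39), the last of which is read from the other strand.

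High-dose replicate 2 moved some of these values. MT-CYB, the cytochrome b of complex III, stood at 153490 in it and at 94358 and 65798 in the others, and was called without it (log2 -0.74, DESeq2 adjusted p = 0.00552), as was MT-ND4L, giving 11 of 13. By edgeR over all 6 libraries MT-ND2 alone of the 13 passed (adjusted p = 0.0314). The MT-ND4, MT-ATP6, MT-ATP8 and MT-CO3 genes overlap a neighbour on the same strand, and the nuclear copy MTND2P28, which fell with MT-ND2 (log2 -1.34), may share its reads. Against vehicle, MT-ND1 and MT-ND2 stood at 0.62 and 0.66 at the medium dose and at -0.73 and -0.62 at the high dose on the log2 scale, whereas MT-ND4 stood at -0.44 and -1.59. Nuclear genes for mitochondrial proteins gave 0 calls among 48 respiratory chain genes, 38 mitochondrial ribosomal protein genes and 25 genes of mitochondrial transcription and RNA handling. Their medians of 0.19, 0.15 and 0.09 became -0.06, -0.02 and -0.03 without high-dose replicate 2.

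**Figure D2:**
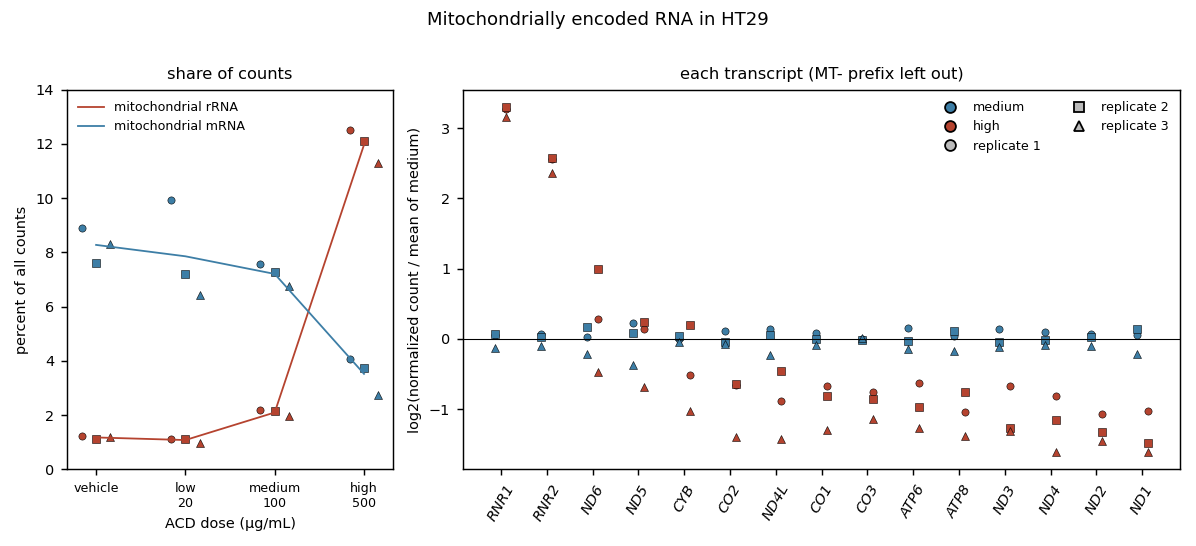
Left, the share of all counts (percent) in mitochondrial ribosomal and messenger RNA in each HT29 library of batch B by dose, with lines through group means; right, log2 of the normalized count over the medium-dose mean for the 15 mitochondrial transcripts, with medium-dose libraries in blue and high-dose libraries in red. The ribosomal share reaches 11.3% to 12.5% at the high dose while the messenger share falls to 2.76% to 4.07%.

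Of 15 chemokines tested, 2 rose, CXCL1 and CCL20. CXCL1 (chromosome 4, 73869393 to 73871308), which attracts neutrophils, stood at 312.6, 279.2 and 315.9 at the medium dose and at 517.9, 801.2 and 556.0 at the high dose (2.06-fold, DESeq2 adjusted p = 8.27e-05). CCL20 (chromosome 2, 227805739 to 227817564), which attracts cells bearing CCR6, stood at 51.6, 63.3 and 48 and then at 104.0, 197.0 and 118.7 (2.54-fold, DESeq2 adjusted p = 0.00295). Both were highest in high-dose replicate 2 and remained called without it, at log2 values of 0.83 and 1.03. The median of the 15 was 0.71 and became 0.38 without that library. CXCL8, another neutrophil attractant, stood at 396.4, 453.2 and 416.7 and then at 554.6, 1289 and 701.3, and was not called (log2 1.00 ± 0.30, DESeq2 adjusted p = 0.107). ICAM1, an adhesion molecule for leukocytes, was the 1 gene called of 23 in the NF-κB list (1.64-fold, DESeq2 adjusted p = 0.000482), and the list's median was 0.04. PI3, the secreted protease inhibitor elafin, rose 1.65-fold and was with PIGR the pair called of 19 genes of complement, acute phase and mucosal defence. CXCL1 and CCL20 already stood above vehicle at the lower doses. CXCL1 was at 1.99, 2.96 and 4.00 over vehicle on the log2 scale at the low, medium and high dose, and CCL20 at 1.82, 2.58 and 3.93. PIGR, which carries IgA across the epithelium, had 67.7, 63.3 and 84.5 normalized counts at the medium dose and 33.6, 27.9 and 33.8 at the high dose, a fall of 1.16 on the log2 scale (SE 0.28, DESeq2 adjusted p = 0.008). It stood at 1.42, 1.57 and 0.42 over vehicle at the 3 doses, so that the high dose was nearer to vehicle than the others.

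Of 30 tested targets of NRF2, the factor that answers oxidants and electrophiles, 3 rose and 0 fell, with a median log2 fold change of 0.29 and 28 positive values. HMOX1, which breaks down haem, stood at 242.8, 251.0 and 260.2 at the medium dose and at 402.3, 520.4 and 430.8 at the high dose (1.79-fold, DESeq2 adjusted p = 1.11e-05). The others were SLC7A11, given above, and AKR1C1, which has close paralogs that could share its reads (1.84-fold, DESeq2 adjusted p = 0.0331; log2 0.58 without high-dose replicate 2). FTH1 and FTL, the chains of the iron store ferritin, passed the adjusted p below the fold rule at 0.44 and 0.45. The aryl hydrocarbon receptor list gave 0 calls among 14 genes. CYP1A1, its best known target, stood at 1990, 2116 and 2213 at the medium dose and at 2148, 2371 and 2361 at the high dose, and the difference did not pass the test (log2 0.12 ± 0.10, DESeq2 adjusted p = 0.98). It had stood at 6.6 with vehicle and 88.1 at the low dose on average.

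**Figure D3:**
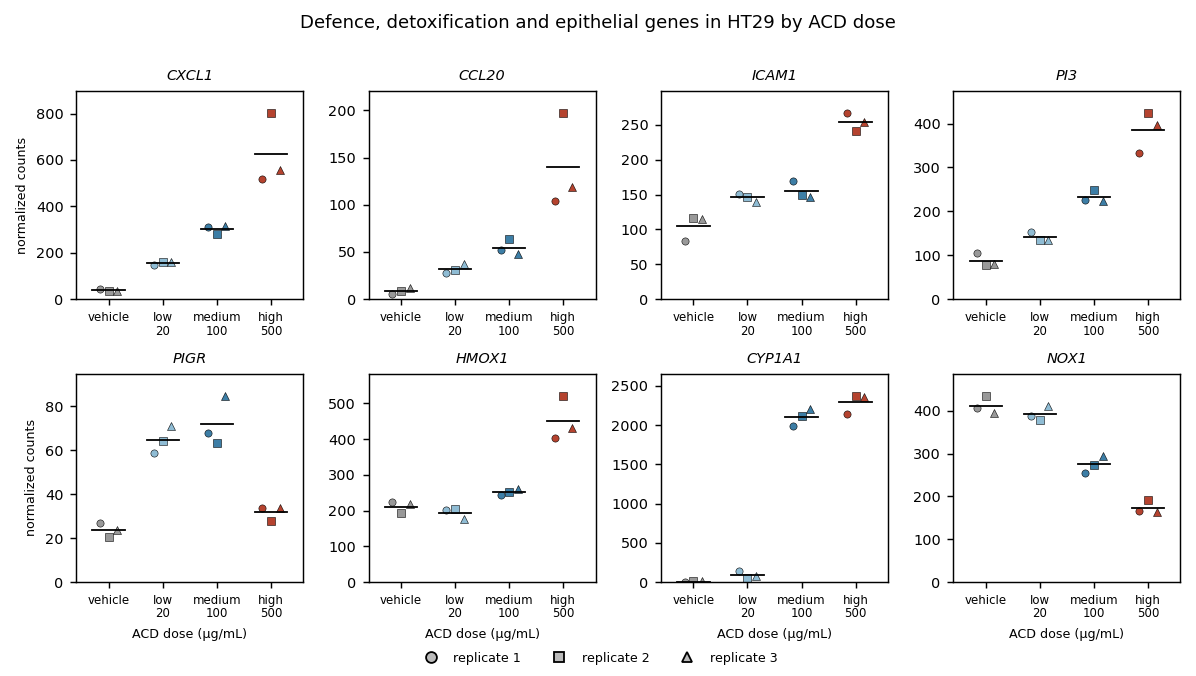
Normalized counts (vertical axes) of CXCL1, CCL20, ICAM1, PI3, PIGR, HMOX1, CYP1A1 and NOX1 in each HT29 library of batch B at vehicle, low, medium and high dose; marker shapes stand for replicates and black bars for group means. CXCL1 and CCL20 climb at each dose, CYP1A1 stands near the same level at the medium and high dose, and PIGR is highest at the low and medium doses.

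Outside the mitochondrial genome 14 genes fell, among them MTND2P28. BCAS1 (chromosome 20, 53936777 to 54070594), which overlaps another gene on the same strand, stood at 1453, 1498 and 1513 at the medium dose and at 890.8, 712.5 and 963.8 at the high dose (log2 -0.79 ± 0.14, DESeq2 adjusted p = 8.26e-06). BTG2 (chromosome 1, 203305491 to 203309602), an antiproliferative target of p53, stood at 713.3, 793.5 and 799.7 and then at 509.5, 418.7 and 471.8 (log2 -0.72 ± 0.13, DESeq2 adjusted p = 8.26e-06). In both the groups were apart by more than the spread within either. NOX1, the superoxide-making oxidase of the colon epithelium, stood at 255.7, 273.9 and 293.8 and then at 167.0, 190.4 and 164.7 (log2 -0.67 ± 0.15, DESeq2 adjusted p = 0.00194), and overlaps another gene on the same strand. CLIC5, a chloride channel protein tied to microvilli, fell by 0.70, the amino acid carrier SLC38A11 by 0.78 with a same-strand overlap, and the alcohol dehydrogenase ADH1C by 1.47 on the log2 scale. ARAP1-AS1, an antisense RNA with a same-strand overlap, had 22.6, 4.6 and 14.4 normalized counts at the medium dose and 0 in all 3 high-dose libraries, and FAM225B the reverse, 0 in all medium-dose libraries and 6.3, 6.6 and 8.6 at the high dose. Neither followed dose, since ARAP1-AS1 was at 0, 1.6 and 0 in the low-dose libraries and at 99.2, 30.3 and 27.7 with vehicle, and FAM225B at 5.1, 3.5 and 0 with vehicle and at 0 in all low-dose libraries. Folds are not given for these because they depend on how a count of 0 is handled. Against vehicle, the medians of the 14 were 0.12, -0.09 and -1.01 at the low, medium and high dose.

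Of 39 tested interferon-stimulated genes, which cells make against viruses, 2 fell and 0 rose, and 34 had negative values with a median of -0.50. The 2 were the antiviral factors DDX60 (log2 -0.86 ± 0.24, DESeq2 adjusted p = 0.049) and SAMD9 (-0.65 ± 0.17, DESeq2 adjusted p = 0.0249). The medium-dose libraries differed among themselves here. OAS2, which makes the signal that activates RNase L, stood at 95.6, 170.1 and 301.5 at the medium dose and at 75.6, 80.4 and 77.0 at the high dose, and was not called (DESeq2 adjusted p = 0.135). Medium-dose replicate 3 was the highest in it, as in MX1, which stood at 441.6 there against 198.7 and 255.6 in its other replicates. Without high-dose replicate 2 the list's median was -0.34, DDX60 was still called, and SAMD9, at a log2 value of -0.51, missed the fold rule and was not. Over vehicle, DDX60 stood at 0.40, 0.38 and -0.47 on the log2 scale at the low, medium and high dose. SAMD9 stood at 0.51, 0.53 and -0.12, so both lay above vehicle at the lower doses.

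Among 233 tested genes of the network the study drew up for the intestinal system, 1 rose, PCK2, and 3 fell, ADH1C, PIGR and NOX1. A further 5 passed the adjusted p below the fold rule with lower values, including the glucose carrier SLC5A1 (log2 -0.49), the integrin chain ITGA1, which overlaps another gene on the same strand, and the nuclear receptor HNF4G. Of all genes tested, 0.264% rose and 0.132% fell. ADH1C and PIGR were low-count genes, with means of 28.6 and 51.8. They had no adjusted p without high-dose replicate 2. The list of 33 genes of glycolysis, hypoxia and glucose handling gave 1 call, VEGFA, and the p53 list of 23 gave SESN2 up and BTG2 down. Endoplasmic reticulum chaperones and unfolded protein response genes gave 0 calls among 28, as did heat shock genes among 21, cholesterol synthesis among 29 (median -0.08), mitosis among 35 (0.00) and DNA replication among 40 (0.06). Calls were 0 too among 24 apoptosis regulators, 28 proteasome genes, 30 lysosome and autophagy genes, 39 immediate early and ERK feedback genes and 42 genes of enterocyte, goblet and colonic differentiation. HERPUD1, of the degradation of misfolded protein, passed the adjusted p in the first of these lists at a log2 value of 0.45. The 40 cytosolic ribosomal protein genes were all positive with a median of 0.26, with 0 called, and their median was -0.01 without high-dose replicate 2.

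**Figure D4:**
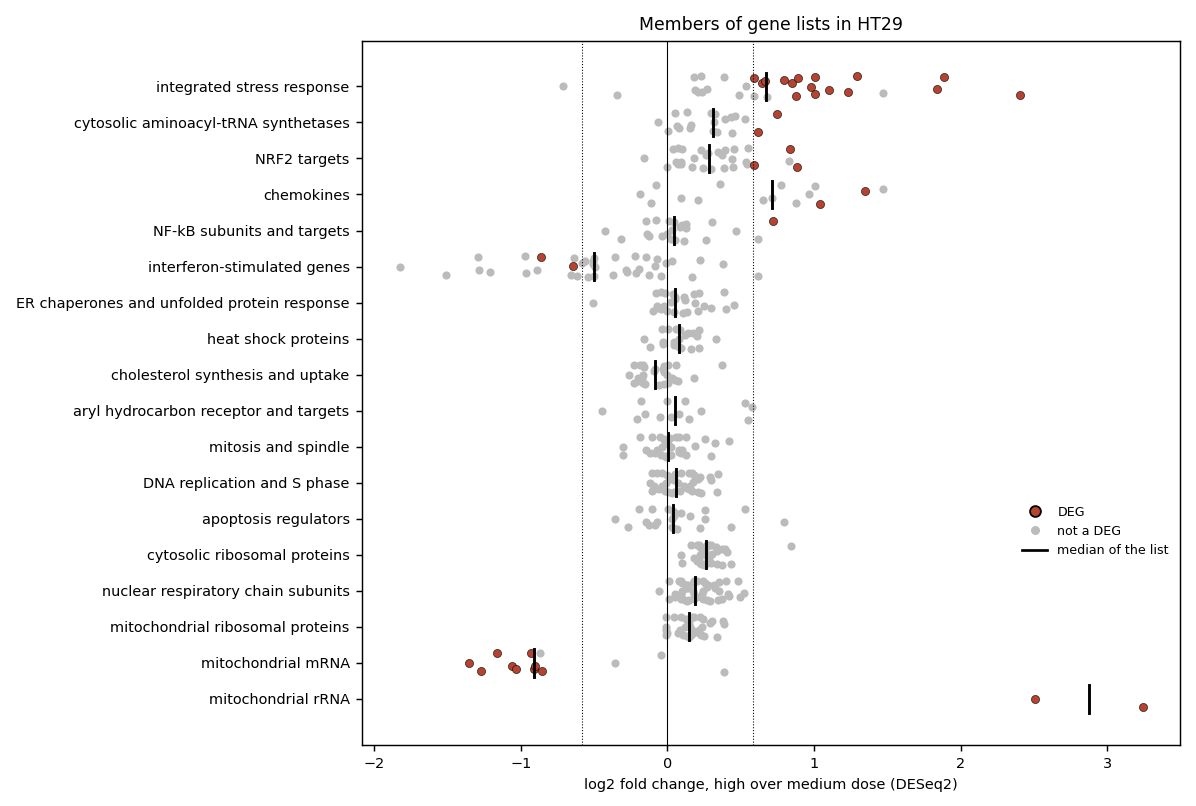
Log2 fold change, high over medium dose, of each tested member of 18 gene lists; red points passed the test and the fold rule, grey points did not, black bars are list medians and dotted lines mark a 1.5-fold change on either side. The integrated stress response has its median at 0.67 and mitochondrial messenger RNA at -0.91, while the ribosomal protein list lies at 0.26 with no red point.

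Whether the step was particular to HT29 was tested against the same step in SW1783, as an interaction in 12 libraries. The step differed between the lines in 1066 of 15466 genes (6.89%), more positive in HT29 for 527 (3.41%) and in SW1783 for 539 (3.49%). SW1783 itself changed 1559 genes over this step (9.74%), 743 of them up (4.64%). Of the 46 rising HT29 genes 45 had a value, and 18 of them rose more in HT29 and 4 less. Of 20 falling genes with a value, 12 had a more negative step in HT29 and 0 a less negative one. Both sets were chosen for their change in the same HT29 libraries, which favours these directions, so the counts are a description.

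CHAC1 was among the stress response genes whose step was larger in HT29. In SW1783, on the scale of the 12 libraries, it stood at 650.5, 615.5 and 676.9 at the medium dose and at 663.2, 629.3 and 707.9 at the high dose, so that the groups overlapped and the difference between the lines' steps was 2.38 ± 0.17 on the log2 scale (DESeq2 adjusted p = 6.89e-43). DDIT4 stood at 4075, 4323 and 3832 and then at 5326, 5300 and 4878 in SW1783, a smaller step than in HT29 (difference 1.50 ± 0.11, DESeq2 adjusted p = 2.56e-42). ASNS, PSAT1, PHGDH and VLDLR also had the larger step in HT29. ATF3 went the other way, from 127.2, 142.0 and 175.0 to 1016, 1106 and 1048 in SW1783 (difference -1.60 ± 0.19, DESeq2 adjusted p = 1.23e-14). GDF15 went from 1037, 1092 and 1171 to 8888, 9274 and 9328 in SW1783 and was not called in HT29 (difference -2.82 ± 0.08, DESeq2 adjusted p = 2.76e-251). DDIT3, PPP1R15A and ALDH1L2 also had the larger step in SW1783. Both lines had 16 members of the list called up, 9 of them in common, and the median in SW1783 was 0.62.

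The mitochondrial transcripts differed as well. MT-RNR1 in SW1783 stood at 313871, 340081 and 322352 at the medium dose and at 285764, 278110 and 289711 at the high dose, with no overlap and the high dose lower (difference between the lines 3.44 ± 0.10, DESeq2 adjusted p = 6.69e-281). Of the 13 messenger RNAs, 10 had a more positive step in SW1783, among them MT-ND4 (difference -1.56 ± 0.23, DESeq2 adjusted p = 2.69e-10). CXCL1 and HMOX1 had the larger step in SW1783, with differences of -2.38 ± 0.46 and -1.52 ± 0.13 for HT29 minus SW1783. CXCL1 went from 4.9, 4.0 and 7.0 to 55.6, 54.3 and 60.5 in SW1783, so its fold there depends on few counts. On the same scale it went from 296.6, 261.9 and 297.7 to 491.4, 750.9 and 526.9 in HT29.

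**Figure D5:**
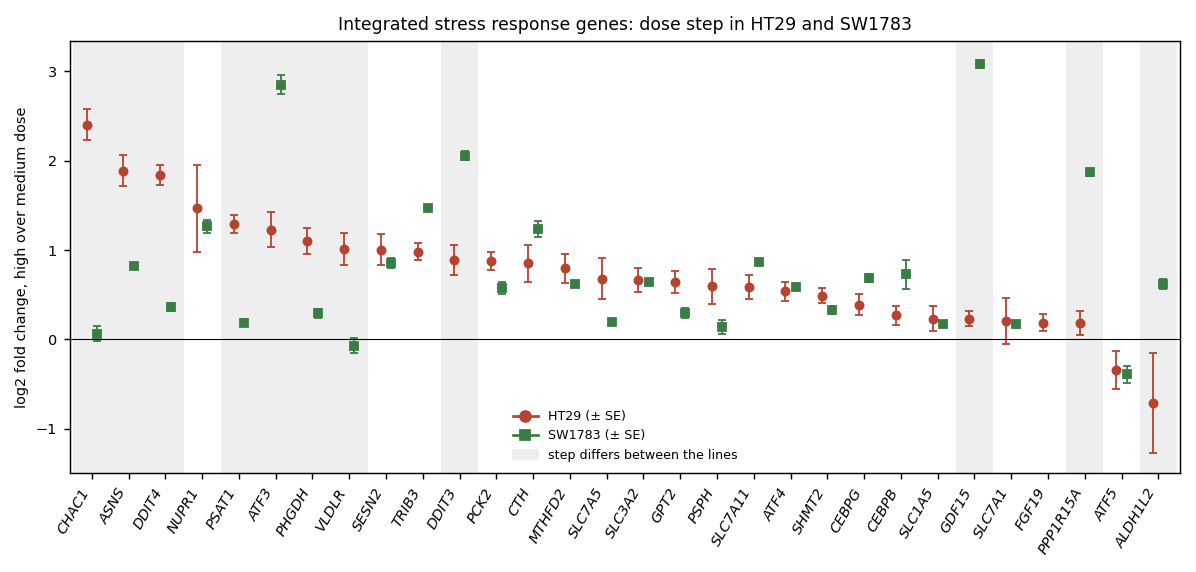
Log2 fold change, high over medium dose (vertical axis), with its SE for the 30 tested integrated stress response genes (horizontal axis) in HT29 and SW1783. Shaded columns are the 11 genes whose step differed between the lines by the DESeq2 interaction test, and FGF19 has no value in SW1783. CHAC1, DDIT4, ASNS, PSAT1, PHGDH and VLDLR lie higher in HT29, and ATF3, DDIT3, GDF15, PPP1R15A and ALDH1L2 in SW1783.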

How the data were processed

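The authors deposited 1 table of expected counts per gene, made by trimming with Trim Galore, alignment with STAR and counting with RSEM on GRCh38; the submitters' notes give versions 0.6.5, 2.7.3a and 1.3.3, and the study's text gives other versions for the first 2. The deposited expected counts (60675 genes, 8.84% of values not whole) were rounded before testing. Changes were tested with DESeq2 1.42.0 in R 4.3.3 on the 6 libraries with dose as the only term (the study used the same test, against vehicle), and with edgeR 4.0.16 as an alternative; the 12-library interaction of line and dose used DESeq2. Adjusted p-values are Benjamini-Hochberg over all genes tested. Alternatives changed size factors, filters, the fold rule, depth, libraries and blocking. Scripts were tested on simulated data. Positions are from GENCODE v44.

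The members and gene lists were chosen with earlier results of these data known. Genes were named by a rule: among called genes with a mean of at least 100 and groups that did not overlap, the 10 protein-coding genes of largest change of each sign and 5 other genes, and, whatever their mean, up to 4 called members per list or, where a list had none, its 2 members of highest mean, and 8 fixed genes; for the interaction, the 5 called genes of each sign with the largest difference and a mean of at least 100. All other genes were chosen after their values were seen. Same-strand overlaps of annotated genes were checked, and counts there are uncertain.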

Additional observations from a re-analysis of the deposited data

Results flagged for a closer look

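The dose step differed between HT29 and SW1783, by the DESeq2 interaction test, for the 38 genes below, which the naming rule picked; it also differed for other genes of the report, such as DDIT3 and VLDLR. Values below are log2 differences, the HT29 step minus the SW1783 step. Among genes of amino acid metabolism and the stress response, the step was more positive in HT29 for CHAC1 (2.38), DDIT4 (1.50), JDP2 (1.29), PSAT1 (1.13), ASNS (1.09), ADM2 (1.02), PHGDH (0.83) and SLC1A4 (0.62), and more positive in SW1783 for GDF15 (-2.82) and ATF3 (-1.60). Both mitochondrial ribosomal RNAs had the more positive step in HT29, MT-RNR1 at 3.44 and MT-RNR2 at 2.99. The mitochondrial messenger RNAs MT-ND4 (-1.56), MT-ND3 (-1.47), MT-ND2 (-1.31) and MT-ND1 (-1.23) had the more negative step in HT29, as did the nuclear copy MTND2P28 (-1.30).

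Of the defence and redox genes, CXCL8 (-2.48), CXCL1 (-2.38), HMOX1 (-1.52), DDX60 (-1.28) and SQSTM1 (-0.96) had the more positive step in SW1783. So did BTG2 (-1.11), SLC14A1 (-1.0) and MYC (-0.75), and the lipid enzymes SCD (-1.34) and SQLE (-0.87). The value of CXCL1 depends on few counts in SW1783 at the medium dose, as given above. The keratin KRT18 (1.30), the chaperone HSPA8 (1.11) and the topoisomerase TOP2A (0.62) had the more positive step in HT29. None of these was called in HT29 (log2 0.14, 0.20 and -0.02), and in SW1783 their steps were -1.14, -0.89 and -0.61. SCD, SQLE, MYC and SQSTM1 were not called in HT29 either (log2 -0.20, -0.23, 0.12 and 0.15). Their steps in SW1783 were 1.17, 0.66, 0.90 and 1.14. SLC14A1 was no longer called once HT29 high-dose replicate 2 was left out, and SLC1A4 and TOP2A were not called by edgeR.

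Among genes with a mean of at least 100 over the 12 libraries, large differences were in PLXNA4 (4.30), LYPD1 (3.92), ENSG00000263424 (3.78) and PALM2AKAP2 (3.57) toward HT29, and in SPDEF (-3.80), ICA1 (-3.76), RNF217 (-3.56) and NGFR (-2.77) toward SW1783. Each of these 8 was at 0 or close to it in libraries of one line, so its fold depends on few counts. PLXNA4 was not called without HT29 high-dose replicate 2, and PLXNA4, PALM2AKAP2, SPDEF and NGFR were not called by edgeR.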

How the results depend on the processing

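No called gene changed direction under any alternative run; medians of lists without calls did without high-dose replicate 2, as given above. The count of 69 became 118 without the fold rule (80 up, 38 down, 108 protein-coding against 59), 12 when tested against the fold itself (10 up, 2 down, 8 protein-coding) and 11 by edgeR (10 up, 1 down, 8 protein-coding). Chosen after seeing the data, edgeR without high-dose replicate 2 gave 143 (81 up, 62 down, 115 protein-coding). With all batch B HT29 libraries in the fit there were 46 down and 91 protein-coding genes, and 39 down without high-dose replicate 2. Without mitochondrial and structured RNA genes 14 fell. Leaving out 1 library at a time gave 42 to 80 in all, 30 to 48 up, 12 to 32 down and 38 to 70 protein-coding, lowest without medium-dose replicate 3 (42); 14, 12 and 12 fell without medium-dose replicates 1, 2 and 3. The causes were not tested. The difference in the share of counts in mitochondrial rRNA was 9.586 to 10.21 points, and the count of genes whose dose step differs between HT29 and SW1783 was 876 to 1257. The labels give same-numbered libraries only a shared number, and whether they share more was not settled. Their deviations correlated at 0.31, 0.23 and -0.02. High-dose replicates 1 and 2 correlated best with the medium-dose library of their own number, and replicate 3 did not. With the replicate block DESeq2 gave 47 genes (31 up) and edgeR 4 (4 up, 0 down, 2 protein-coding). Of the named genes, 26 lost their call by edgeR. Depth limits low genes, with a floor of 0.188 CPM in the smallest library.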
